A study of Arabidopsis thaliana with 12 samples.

Results

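EXPA8 (AT2G40610) and EXLB1 (AT4G17030) are the Arabidopsis thaliana genes of an alpha-expansin and an expansin-like protein. They were followed here because their transcripts differed in opposite directions in plants that had lost the auxin response factors ARF6 and ARF8. Each is measured by 1 probe set, and they are 2 of 13286 genes with a probe set listed under 1 gene, of which 9703 had a probe set bright enough to be kept. Their differences between genotypes chose them, so these are described below without a test. The exception is a change of the EXPA8 difference between tissues, which did not pass and is not free of that choice either.

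Expansins are small wall proteins that let cellulose microfibrils slip past each other at acid pH, without cutting the polymers, so that a cell under turgor can enlarge. EXPA proteins are the alpha-expansins and EXPB proteins the beta-expansins. The expansin-like EXLA and EXLB proteins share the domains of the family, but a wall-loosening activity has not been established for them. ARF6 and ARF8 are related transcription factors through which auxin promotes the final growth of petals, stamen filaments and the gynoecium and the opening of the flower.

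The arrays covered arf6 arf8 plants, which are mutant in both genes, plants with 1 functional copy of the pair left (single-copy plants), and wild-type Columbia. Sample titles give the single-copy genotype as arf6/arf6 ARF8/arf8, whereas the design text gives ARF6/arf6 arf8/arf8, and the titles are followed here. The background of the mutant plants and the nature of their alleles are not given in the sources used here. Each genotype was sampled once as flowers of stages 1-10, 11-12 and 13-14, the last holding open flowers in wild-type, and once as a stem piece of about 0.5 cm. All plants were untreated and had grown for 6 weeks in long days, and how many were pooled is not stated.

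The 12 libraries had median signal intensities of 192 to 235.3, and 63.3% to 66.7% of probe sets reached 100. Among single-copy libraries, those of stages 1-10 and 13-14 were the farthest from wild-type, with 936 and 1012 probe sets at least 2-fold different, against 397 at stages 11-12 and 166 in stem. The ratio of the 3' to the 5' GAPDH control probe set was 0.655 in the single-copy stage 13-14 library and 0.922 to 1.61 in the other 11. Its part in the single-copy values was not tested. Of 28 tissue and cell type markers 4 are listed, and none for floral organ identity or stem secondary wall, so the stem label was not checked. The tapetum gene AT5G07230 had signals of 1950.2 to 3866 in the flowers of stages 1-10 and at most 53.3 in the later ones, where tapetum has broken down.

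EXPA8 signal was lower in arf6 arf8 than in wild-type in all 4 tissues. In arf6 arf8 it was 811, 607 and 263 in flowers of stages 1-10, 11-12 and 13-14 and 89.6 in stem. In single-copy plants it was 1184, 3645 and 2274 in flowers and 411 in stem. In wild-type it was 1860, 6739 and 6398 in flowers and 1055 in stem. The lowest wild-type library lay above the highest arf6 arf8 library, while the single-copy libraries overlapped both. Over all 4 tissues 2.38% of the 17642 kept probe sets separated in this way with arf6 arf8 lower. Because tissue is a mixture of cells, fewer cells of a type and less RNA per cell cannot be told apart in any of these values.

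EXLB1 signal was higher in arf6 arf8 in all 4 tissues, and its 3 genotypes formed 3 separate ranges. In arf6 arf8 it was 686, 935.5 and 679 in flowers of stages 1-10, 11-12 and 13-14 and 1201 in stem. In single-copy plants it was 400.4, 349 and 238 in flowers and 497 in stem. In wild-type it was 89.8, 73.5 and 119.8 in flowers and 108.5 in stem, close to the signal of 100 used as the minimum for keeping a probe set. Of all kept probe sets 3.62% had arf6 arf8 wholly above wild-type. With all 3 genotypes apart over the 4 tissues there were 3 with arf6 arf8 highest (0.017%), namely EXLB1, AT3G54390 and a probe set not listed under 1 gene. There was 1 with arf6 arf8 lowest (0.00567%), AT4G22650, and these names were picked after their values were seen.

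**Figure D1:**
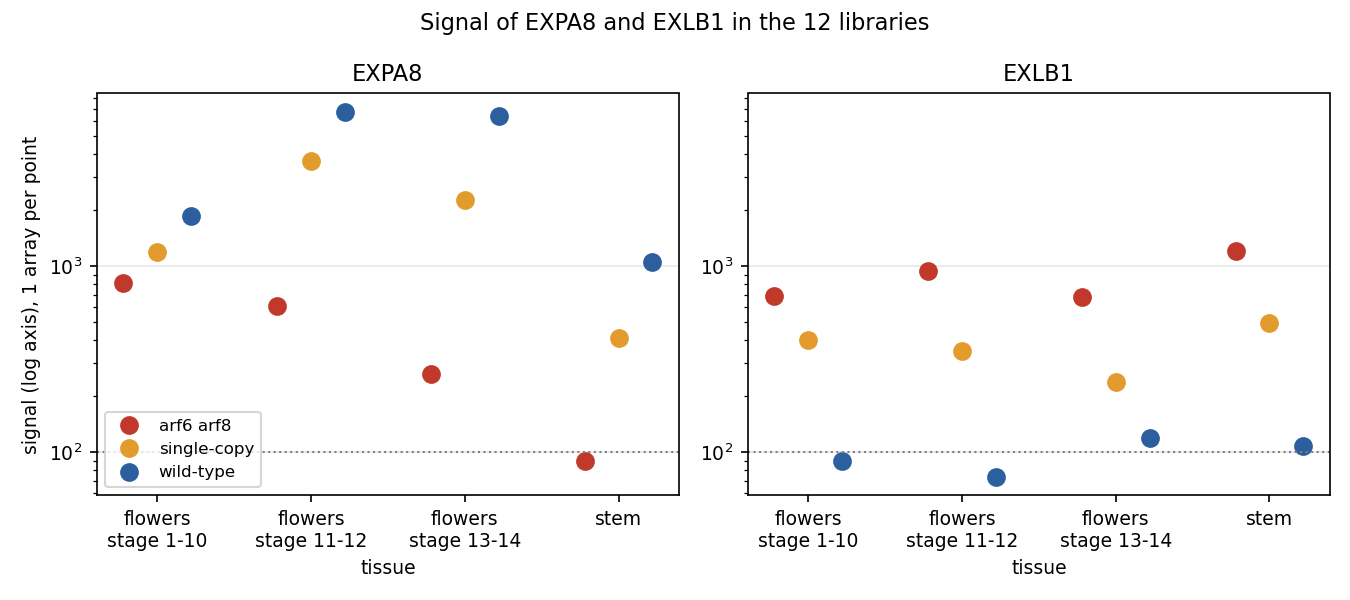
Signal of EXPA8 and EXLB1 (linear MAS5 intensity on a log axis) in each of the 12 libraries, by flower stage and stem, with arf6 arf8, single-copy and wild-type shown as separate points, 1 array each, and a dotted line at the filter minimum of 100. EXPA8 was 263 in arf6 arf8 and 6398 in wild-type at stages 13-14, and EXLB1 stayed between 73.5 and 119.8 in wild-type but between 679 and 1201 in arf6 arf8.

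On the scale of log2(signal + 50), the EXPA8 difference of arf6 arf8 from wild-type was -1.15 at stages 1-10, -3.37 at stages 11-12, -4.36 at stages 13-14 and -2.98 in stem. As ratios, EXPA8 was 2.22-fold, 10.3-fold, 20.6-fold and 7.91-fold lower in arf6 arf8. The mean of the 4 tissues was -2.97 ± 1.34 (SD over tissues, n = 4). The smallest difference was in the youngest flowers and the largest in the oldest. Among the 17642 kept probe sets the EXPA8 difference ranked 154th from the lowest at stages 1-10, 46th and 34th at the later stages and 16th in stem.

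For EXLB1 the differences were 2.40, 3.0, 2.10 and 2.98 in the same order, or 5.26-fold, 7.98-fold, 4.30-fold and 7.89-fold higher in arf6 arf8. Their mean was 2.62 ± 0.44 (SD over tissues, n = 4), so EXLB1 varied less between tissues than EXPA8. It ranked 5th from the highest at stages 1-10, 15th at stages 11-12, 92nd at stages 13-14 and 8th in stem. Low wild-type signals make these ratios depend on the added constant of 50. With a constant of 200 the mean difference of EXLB1 at stages 11-12 and 13-14 was 1.76, against 2.55 with 50 and 2.88 with 16.

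**Figure D2:**
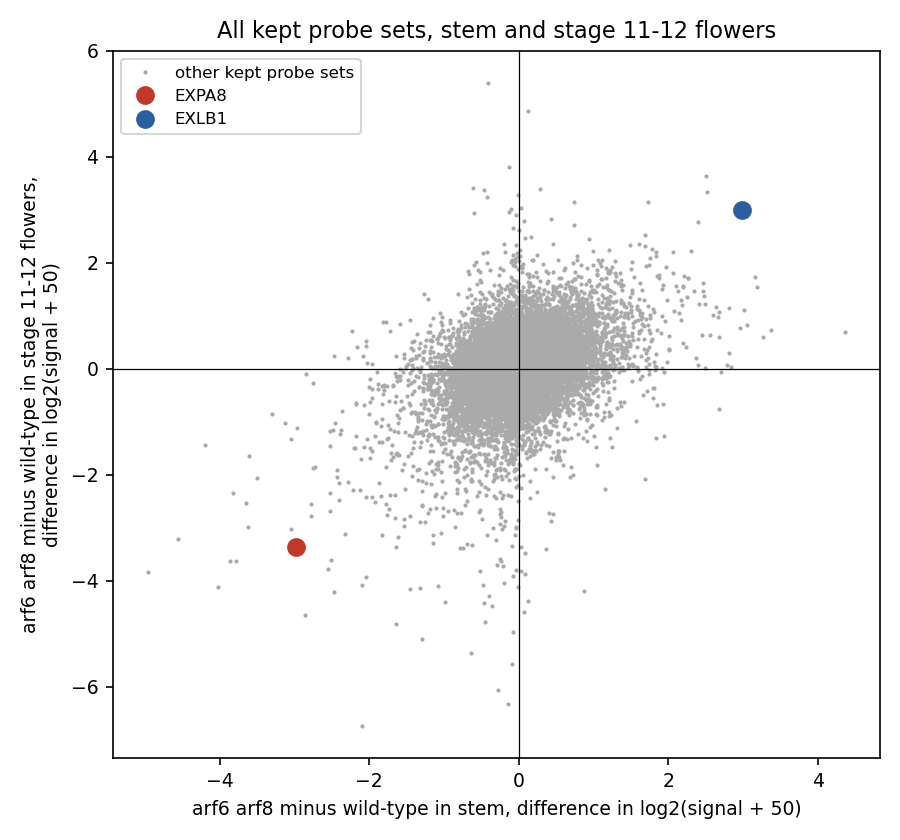
Difference of arf6 arf8 from wild-type (log2 of signal + 50) for all 17642 kept probe sets, in stem on the horizontal axis and in stage 11-12 flowers on the vertical axis, with EXPA8 and EXLB1 as large points and 1 array per genotype and tissue. EXPA8 lies at -2.98 in stem and -3.37 in the flowers, and EXLB1 at 2.98 and 3.0.

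A probe set was counted as 2-fold different where the ratio of (signal + 50) reached 2 and the brighter library reached 200. By that rule EXPA8 was lower in arf6 arf8 in 4 of 4 tissues, as were 22 probe sets in all (0.125%). In single tissues 0.986%, 3.94%, 5.51% and 1.62% of probe sets were lower at stages 1-10, 11-12, 13-14 and in stem. EXLB1 was higher in 4 of 4 tissues, as were 19 probe sets in all (0.108%), with 1.07%, 3.57%, 5.33% and 2.53% in the single tissues. Since these contrasts chose the genes, the shares only place them among the rest.

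Single-copy plants lay between arf6 arf8 and wild-type for both genes in every tissue. The EXPA8 difference of single-copy plants from wild-type was -0.63, -0.88, -1.47 and -1.26 at stages 1-10, 11-12, 13-14 and in stem, with a mean of -1.06 ± 0.38 (SD, n = 4 tissues). That of EXLB1 was 1.69, 1.69, 0.76 and 1.79, with a mean of 1.48 ± 0.48 (SD, n = 4 tissues). By the 2-fold rule EXPA8 was lower in single-copy plants in the oldest flowers and in stem, 2 of 4 tissues. The share of all probe sets that were lower was 3.71%, 1.76%, 2.98% and 0.504% in stage order and then stem. EXLB1 was higher by that rule in 3 of 4 tissues and 1.70-fold higher at stages 13-14. The share that were higher was 1.6%, 0.493%, 2.76% and 0.436%. Without stages 1-10 and 13-14, whose single-copy libraries were the farthest from wild-type, the means were -1.07 for EXPA8 and 1.74 for EXLB1 (n = 2 tissues).

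The single-copy difference made up 54.8%, 26.0%, 33.7% and 42.3% of the arf6 arf8 difference of EXPA8 on the log2 scale, in stage order and then stem. For EXLB1 the shares were 70.4%, 56.5%, 36.2% and 59.9%. The share was larger for EXLB1 in each of the 4 tissues, but at stages 13-14 a constant of 200 turned the order, with 31.1% for EXLB1 and 36.9% for EXPA8. With 1 array per value these shares were not tested. From single-copy plants to arf6 arf8 the further difference was -0.52, -2.49, -2.89 and -1.72 for EXPA8 and 0.71, 1.30, 1.34 and 1.19 for EXLB1. A steady order of the 3 genotypes in all 4 tissues was seen for 111 probe sets with arf6 arf8 highest (0.629%) and 105 with arf6 arf8 lowest (0.595%).

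Both the order and the 2-fold rule in all 4 tissues were met by 10 probe sets that were higher (0.0567%) and 5 that were lower (0.0283%). Of the 5 lower ones 2 are listed under 1 gene, EXPA8 and AT5G12940. Of the 10 higher ones 6 are listed under 1 gene: EXLB1, the xyloglucan enzyme gene EXGT-A3, AT1G27030, AT1G25530, AT3G02910 and AT1G80130. EXGT-A3 belongs to the XTH family, whose enzymes cut and rejoin the xyloglucan chains between microfibrils.

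**Figure D3:**
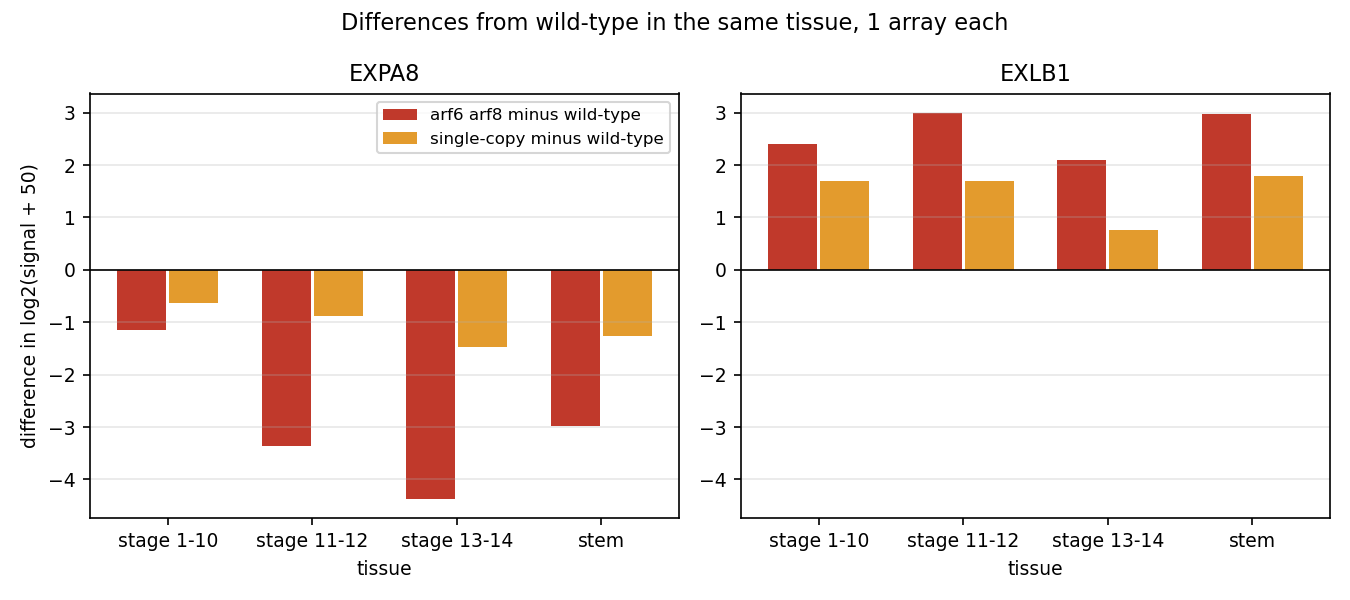
Difference of log2(signal + 50) from wild-type for EXPA8 and EXLB1 in each tissue, arf6 arf8 beside single-copy plants, 1 array per genotype and tissue and so no error bar. EXPA8 lay below 0 and EXLB1 above 0 in each tissue, with arf6 arf8 values of -4.36 and 2.10 at stages 13-14 against single-copy values of -1.47 and 0.76.

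Measured from stages 1-10, the course of EXPA8 through flower development had opposite signs in arf6 arf8 and the other genotypes. Between stages 11-12 and 13-14 its log2 difference was below 0 in each genotype, at -1.07 in arf6 arf8, -0.67 in single-copy plants and -0.07 in wild-type. From stages 1-10 to 11-12 the log2 difference was -0.39 in arf6 arf8, 1.58 in single-copy plants and 1.83 in wild-type. From stages 1-10 to 13-14 it was -1.46, 0.91 and 1.76 in the same order of genotypes. Wild-type EXPA8 signal was thus 3.55-fold and 3.38-fold above that of young buds at the later stages, and arf6 arf8 signal was 1.31-fold and 2.75-fold below it. Each value compares single arrays, and the -0.39 of arf6 arf8 lay within 0.53, the residual SD of the genotype-by-phase fit. The EXPA8 difference of arf6 arf8 from wild-type was -3.87 over the older flowers and -2.07 over stages 1-10 and stem. Stem alone was at -2.98, near the -3.37 of stages 11-12. The change of -1.80 between those 2 means did not pass (limma adjusted p = 0.301), where 0.295% of all probe sets did. The same differences chose the gene, so that p-value is not a test free of the choice. For EXLB1 the differences between flower stages ran from -0.65 to 0.46 over the 3 genotypes.

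The mean change between tissues over the 3 genotypes was not used in choosing the genes and was tested with limma on all 12 libraries. EXPA8 was lower in stem than in flowers of stages 1-10 by -1.61 (SE 0.46, 95% interval -2.64 to -0.58), and this mean passed with an adjusted p of 0.0446. The difference was below 0 in 3 of 3 genotypes, at -2.62 in arf6 arf8, -1.42 in single-copy plants and -0.79 in wild-type. Adjusted p-values ranged between 0.0201 and 0.168 over the alternatives. Of all probe sets, 7.52% fell in that comparison. The call ended without any of 8 of the 12 libraries, namely wild-type of stages 11-12 or stem, single-copy of stages 1-10, 11-12 or stem, and arf6 arf8 of stages 1-10, 11-12 or stem. Without arf6 arf8 of stages 1-10 the difference was -0.90.

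The stage changes of EXPA8 did not pass as means over genotypes. At stages 11-12 minus 1-10 the difference was 1.01 (SE 0.46, 95% interval -0.02 to 2.04, adjusted p = 0.228, range 0.00755 to 0.623 over alternatives). It was higher in 2 of 3 genotypes, and 8.64% of probe sets passed either way. At stages 13-14 minus 1-10 it was 0.40 (SE 0.46, 95% interval -0.62 to 1.43, adjusted p = 0.584, range 0.0140 to 0.999), where 18.7% passed. With the 4 arf6 arf8 libraries left out these differences were 1.71 and 1.33, with the lowest adjusted p-values of both ranges. Without the arf6 arf8 stage 1-10 library alone they were 1.72 and 1.12. Neither fit is a test free of the choice of the gene. The gap between wild-type and arf6 arf8 chose EXPA8, and with arf6 arf8 libraries missing that choice enters these stage differences.

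EXLB1 did not pass in any tissue comparison. It differed by 0.02 (95% interval -0.48 to 0.53, adjusted p = 0.970, range 0.769 to 0.998 over alternatives) at stages 11-12 minus 1-10. At stages 13-14 minus 1-10 it differed by -0.13 (95% interval -0.63 to 0.38, adjusted p = 0.739, range 0.195 to 0.980). Stem minus stages 1-10 gave 0.41 (95% interval -0.09 to 0.91, adjusted p = 0.257, range 0.149 to 0.666), with 13.6% of probe sets called either way and the stem higher in 3 of 3 genotypes. Between stages 13-14 and 11-12, where 1.91% of probe sets passed, EXPA8 differed by -0.60 (adjusted p = 0.564, range 0.267 to 0.944) and EXLB1 by -0.15 (adjusted p = 0.776, range 0.261 to 0.993).

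Ordering the 12 libraries by signal put wild-type stages 11-12 and 13-14 first for EXPA8 and arf6 arf8 stem and stages 13-14 last. For EXLB1 the 4 arf6 arf8 libraries came first, the single-copy libraries next and the wild-type libraries last. The residual SD of the fit of genotype by flower phase was 0.53 for EXPA8 and 0.31 for EXLB1 on the log2 scale. For each gene 6 of the 11 steps between neighbours lay within it and 5 exceeded it. For EXPA8 the top pair of wild-type libraries could not be told apart by that measure, nor could wild-type stem and the arf6 arf8 flowers of stages 1-10. For EXLB1 each step between neighbouring wild-type libraries lay within it.

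Of the markers of other cell types, the nectary gene SWEET9 had signals of 46.7 and 83.9 in arf6 arf8 at stages 11-12 and 13-14. It had 1350.5 and 5201 in single-copy plants and 1310.2 and 5520.5 in wild-type at those stages. The sperm cell gene MGH3, a marker of pollen, had 166.6 in arf6 arf8, 317.1 in single-copy plants and 483.1 in wild-type at stages 11-12. At stages 13-14 it had 11.1, 180.0 and 159.3 in the same order of genotypes. The part of these cell types in the flower values was not tested. In stem SWEET9 was 101.4, 92.6 and 98.0 and MGH3 was 7.6, 10.3 and 8.3 in arf6 arf8, single-copy and wild-type plants. These stem values do not show what part nectary or pollen cells had in the flowers. The tapetum gene AT5G07230 had 5.6, 31.7 and 176.3 in those stems, in the same order of genotypes as EXPA8, and its part was not tested. The carpel gene SPT had 449, 395, 368 and 267 in arf6 arf8 (stages 1-10, 11-12, 13-14 and stem), 324, 272, 268 and 201 in single-copy plants and 393, 234, 255 and 194 in wild-type. It was higher in arf6 arf8 than in wild-type in all 4 tissues, as EXLB1 was, and its part was not tested.

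The annotation lists 36 expansin superfamily genes, of which 19 have a probe set of their own, and 16 were kept, EXPA8, EXLB1 and 14 others. Of the 14 others, 0 passed the limma test of arf6 arf8 against wild-type over stages 11-12 and 13-14, where 5.96% of all probe sets did. An unadjusted p under 0.05 was found for 6 of the 14, against 23.7% of all probe sets. Their differences were below 0 for 10 and above 0 for 4, with a median of -0.61 against 0.05 for all probe sets tested. In single-copy plants the median was -0.22 over the same stages, with 0 past the limma test, 0 under an unadjusted p of 0.05 (3.71% of all probe sets) and 0% of all probe sets called. Over stages 1-10 and stem the median of the arf6 arf8 difference was -0.05, again with 0 past the test and 0 under an unadjusted p of 0.05, beside 0.068% and 7.14% of all probe sets.

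Among the alpha-expansins EXPA15 was nearest to the threshold, at -1.10 (SE 0.29, adjusted p = 0.0630, range 0.0110 to 0.388 with single libraries left out). EXPA15 signal at stages 11-12 and 13-14 was 560.5 and 388 in arf6 arf8, 701 and 1272.5 in single-copy plants and 1035 and 1086 in wild-type. It passed with either older single-copy library left out (adjusted p = 0.0112 without stages 11-12 and 0.0110 without stages 13-14). EXPA9 differed by -0.75 (SE 0.23, adjusted p = 0.0946) and EXPA4 by -0.05 (SE 0.41, adjusted p = 0.953). Without the arf6 arf8 stage 13-14 library EXPA15 was at -0.64 and EXPA9 at -0.48, and without that of wild-type EXPA9 was at -0.45. The EXPA4 value rests on opposite differences at the 2 stages, with 1080.3 and 1133 in arf6 arf8 against 741 and 1762 in wild-type, and it was 0.74 without the arf6 arf8 stage 13-14 library.

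Of the beta-expansins, EXPB3 differed by -0.75 (SE 0.30, adjusted p = 0.173), EXPB5 by -0.55 (SE 0.26, adjusted p = 0.243) and EXPB1 by -0.38 (SE 0.27, adjusted p = 0.427). Without the arf6 arf8 stage 13-14 library EXPB3 was at -0.22 and EXPB1 at -0.18, and without that of stages 11-12 they were at -1.28 and -0.59. EXPB5 was at -0.15 without wild-type stages 13-14 and at -0.95 without wild-type stages 11-12. EXPB3 was bright in stem, with 3533 in arf6 arf8, 4328 in single-copy plants and 5001 in wild-type. The EXLA genes, the other expansin-like genes kept, had values of the opposite sign to EXLB1: EXLA2 was at -1.36 (SE 0.40, adjusted p = 0.0849) and EXLA1 at -1.06 (SE 0.40, adjusted p = 0.159). EXLA2 passed without the arf6 arf8 stage 1-10 library (adjusted p = 0.0201) or stem library (adjusted p = 0.0201). The EXLA1 value rests on stages 13-14: it was -0.36 without that wild-type library and -0.37 without that of arf6 arf8, and -1.75 without the stage 11-12 library of wild-type or of arf6 arf8. EXLA1 signal at stages 13-14 was 543 in arf6 arf8, 1032 in single-copy plants and 2287 in wild-type, against a wild-type signal of 151.6 at stages 1-10.

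Counted by tissue with the 2-fold rule, 0 of the 14 others differed at stages 1-10. At stages 11-12 EXLA2 was lower in arf6 arf8, and at stages 13-14 EXLA2, EXPA15, EXLA1, EXPB3 and EXPA9 were. In stem EXLA2 was lower, and none was higher in any of the 4 tissues. These counts of 0, 1, 5 and 1 of 14 stand beside 0.986%, 3.94%, 5.51% and 1.62% of all probe sets lower by the same rule. Medians of the 14 were 0.12, -0.19, -1.02 and -0.16 at stages 1-10, 11-12, 13-14 and in stem, beside -0.01, 0.05, 0.07 and 0.00 for all probe sets. EXPA8 at -4.36 and EXLB1 at 2.10 lay outside the range of the 14 at stages 13-14, a description since both were chosen on that difference.

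**Figure D4:**
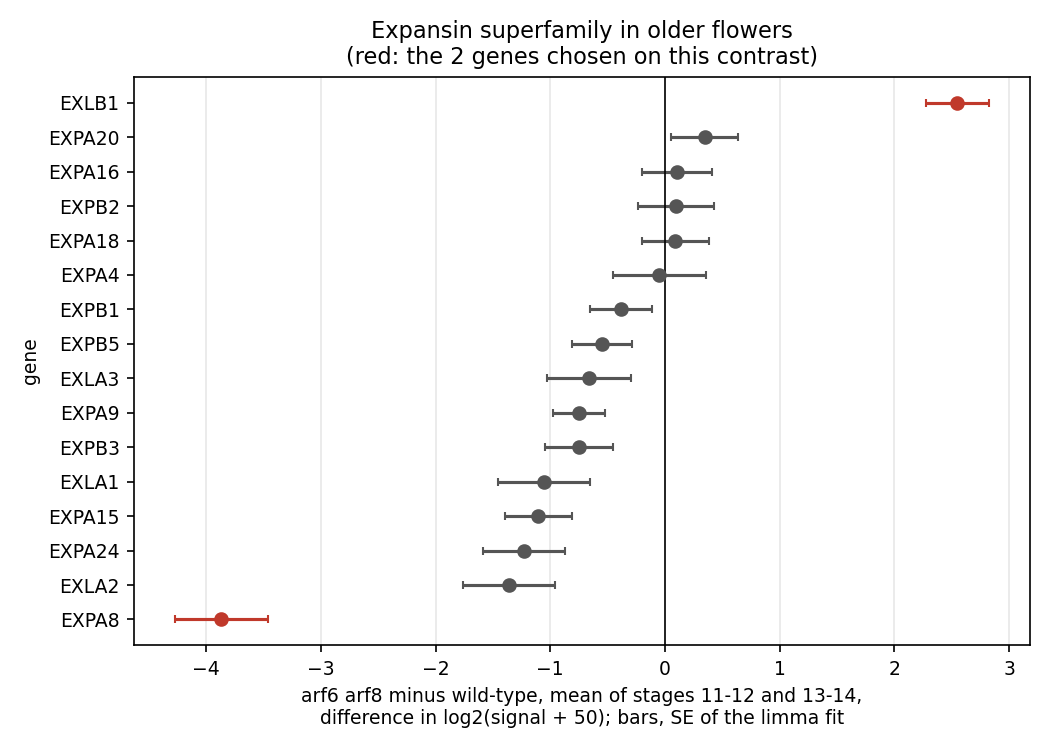
Difference of arf6 arf8 from wild-type over stages 11-12 and 13-14 (log2 of signal + 50) for each expansin superfamily gene with a kept probe set; bars are the standard error of the limma fit, and EXPA8 and EXLB1 are in red because they were chosen on this difference. EXPA8 stands at -3.87 and EXLB1 at 2.55, and the 14 others run between -1.36 for EXLA2 and 0.35 for EXPA20.

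Other wall-acting families were counted in the same fit. Of 33 XTH genes 10 have a probe set of their own, and 7 were kept. Of these 4 passed, 2 in each direction, beside 2.86% of all probe sets higher and 3.11% lower. EXGT-A3 (1.22, SE 0.20, adjusted p = 0.0131) and XTH32 (0.90, SE 0.21, adjusted p = 0.0415) rose in arf6 arf8, and XTH19 (-3.60, SE 0.63, adjusted p = 0.0166) and XTH16 (-1.48, SE 0.26, adjusted p = 0.0173) fell, with a family median of -1.03. Family 9 endoglucanases act on glucan chains of the wall. Of 21 such genes 15 have a probe set of their own, and 12 were kept. GH9B8 (-1.99, SE 0.29, adjusted p = 0.00848), GH9C2 (-2.39, SE 0.50, adjusted p = 0.0297) and GH9B13 (-1.80, SE 0.42, adjusted p = 0.0429) fell, 0 rose, GH9B7 was at -0.96 (SE 0.25, adjusted p = 0.0574), and the family median was -0.59. All 7 calls ended without the wild-type stage 13-14 library or without that of arf6 arf8, with adjusted p-values between 0.0852 and 0.270. XTH32 and GH9B13 depended on most libraries, since their calls ended in 10 and 8 of the 12 fits that left 1 out, as did that of GH9C2 in 5, of EXGT-A3 in 4 and of XTH16 in 3. Plasma membrane proton pumps, which acidify the wall, are not analysed here.

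The genes most like EXPA8 over the 12 libraries, by Pearson's r of log2(signal + 50) among 1374 candidates, were AT2G42900 (0.952), AT2G34810 (0.946), AT1G12080 (0.939), AT5G47550 (0.932), AT5G48900 (0.914) and AT3G14395 (0.894). AT5G48900 encodes a pectate lyase, which cuts the pectin of walls. Its signal at stages 1-10, 11-12 and 13-14 was 430.1, 268 and 292 in arf6 arf8, 767, 6084 and 3697 in single-copy plants and 782, 5866 and 6902 in wild-type. AT5G47550 encodes a cystatin, an inhibitor of cysteine proteases, and had 176 in arf6 arf8 stem, 1101 in single-copy stem and 2515 in wild-type stem. Of these 6, AT1G12080, AT5G47550 and AT3G14395 were brighter in single-copy than in wild-type flowers of stages 1-10 and 11-12, which EXPA8 was not.

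Most like EXLB1 were AT1G27030 (0.923), PRXR1 (0.913), AT3G47510 (0.869), AT3G24450 (0.858), AT3G53980 (0.854) and FMO (AT1G12200, 0.826). PRXR1 encodes a class III peroxidase, an enzyme family that can cross-link wall polymers, and FMO a flavin-dependent monooxygenase. PRXR1 signal was 9675, 10062, 10169.7 and 12145.5 in arf6 arf8 (stages 1-10, 11-12, 13-14 and stem), 6033, 4972.5, 6513.5 and 8183.5 in single-copy plants and 5245, 2967.5, 3350.5 and 4908 in wild-type. AT1G27030 had 649.9 in arf6 arf8 stem, 249 in single-copy stem and 62.7 in wild-type stem. AT3G53980, of the lipid transfer protein family, had its highest signal in stem in each genotype, at 7299.6, 4433 and 1250.5 in arf6 arf8, single-copy and wild-type plants. These 12 libraries share genotypes and tissues, so the coefficients are given as a measure of likeness only.

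**Figure D5:**
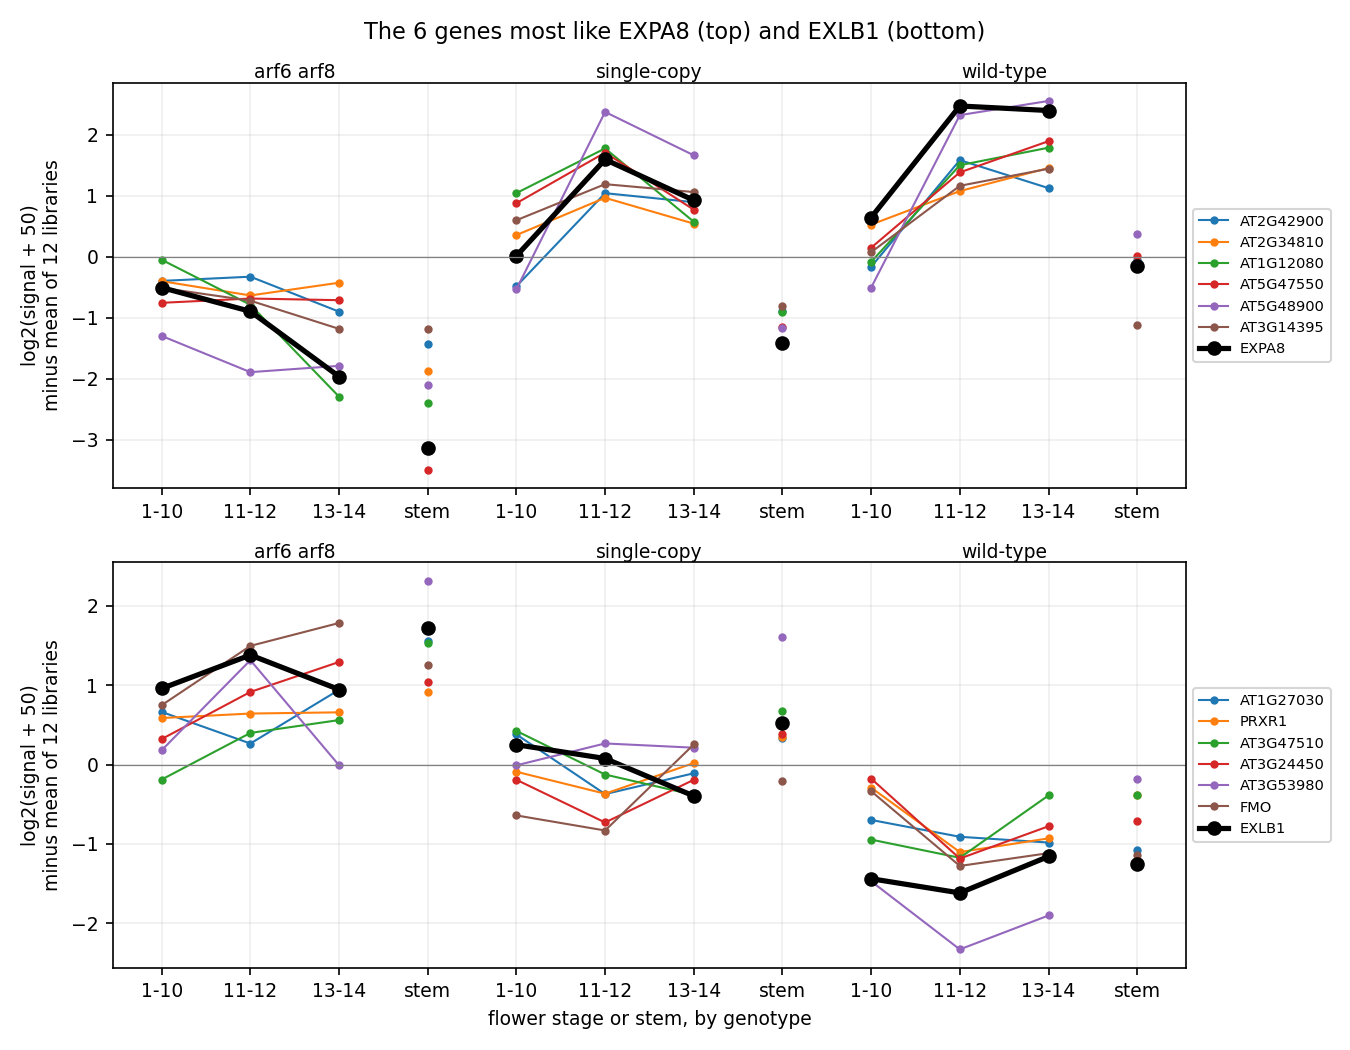
Level of log2(signal + 50) minus each gene's mean over the 12 libraries, for EXPA8 with the 6 genes most like it (top) and EXLB1 with its 6 (bottom), grouped as arf6 arf8, single-copy and wild-type; lines join the flower stages of a genotype and stem stands alone. Pearson's r with EXPA8 runs from 0.894 to 0.952 and with EXLB1 from 0.826 to 0.923.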

How the data were processed

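Total RNA from 12 libraries was hybridised to oligonucleotide arrays, 1 per genotype and tissue, after labelling of about 7 µg as biotinylated cRNA. The authors deposited 1 linear signal intensity per probe set and array, made with MAS5 per the submitters' processing notes, which as used here name no version. The deposited arrays had trimmed means (2% at each end) of 500.0329 to 500.0444. They were rescaled to 500 and transformed as log2(signal + 50). Of 22810 probe sets 64 were controls, and 17642 of the other 22746 were kept for a signal of 100 in at least 1 library. Names come from the platform's probe table and loci, and no sequences or coordinates were used. Levels of different probe sets were not compared. Where the same values are described as folds, they are ratios of (signal + 50).

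limma 3.58.1 in R 4.3.3 (eBayes with trend, two-sided, Benjamini-Hochberg over all kept probe sets, threshold 0.05) fitted genotype plus tissue for tissue means. It fitted genotype by phase (older flowers of stages 11-12 and 13-14; stages 1-10 and stem) plus tissue for genotypes. With no second array per genotype and tissue, p-values measure the spread between these libraries only, which mixes array error with genotype-by-tissue differences. Precision is limited by how few arrays there are. On simulated data the older-flower fit recovered 29% of log2 changes of 1 and 97% of changes of 2 among 17642 probe sets, with 6 false calls. The simulated noise was independent and normal around the fitted model, so these shares need not hold for the real arrays.

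The genes, lists and tests were chosen with earlier results of these data known. Named were EXPA8 and EXLB1, the other expansins past the threshold and the 8 of highest mean signal, up to 4 XTH and 4 endoglucanase genes by smallest p, and the 6 genes most like each gene among those reaching a signal of 500 with a range of 2 log2 units. Others are said to be picked after their values were seen. Alternatives were pseudocounts of 16 and 200, no filter or a stricter one, quantile normalization, eBayes without trend, other sets of libraries, and each library left out. Probe sets of several expansin genes (2) were left out.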

Additional observations from a re-analysis of the deposited data

How the results depend on the processing

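The stem difference of EXPA8, -1.61, missed the threshold with a pseudocount of 200 (-1.23, adjusted p = 0.0816), without a filter (-1.61, adjusted p = 0.0670) and with single-copy stages 1-10 and 13-14 left out (-1.80, adjusted p = 0.102), and ran from -2.11 to -0.90 with 1 library left out. Its stage differences were 1.71 and 1.33 without the 4 arf6 arf8 libraries, where the choice of the gene enters. At stages 11-12 they ran from 0.51 to 1.72 with 1 library left out. At stages 13-14 they ran likewise from -0.10 (without wild-type stage 1-10) to 1.12. For EXLB1, near 0 throughout, the sign turned at stages 11-12 without arf6 arf8 (-0.18) and at stages 13-14 without that pair of single-copy libraries (0.13), with ranges of -0.12 to 0.16 and -0.40 to 0.079 for 1 library left out. The cause was not tested. A pseudocount of 200 gave an EXPA8 difference of arf6 arf8 from wild-type of -2.12 in stem, against -2.98, and -3.83 at stages 13-14, against -4.36. The older-flower difference of EXLB1 was 2.88 with a pseudocount of 16 and 1.76 with 200, and that of single-copy plants 0.73 with 200, against 1.23, since the added constant weighs on dim wild-type signals. Of the other expansins 1 passed with a pseudocount of 200 (EXPA24), after quantile normalization or without the same pair (EXPA15), and 0 to 2 with 1 library left out; EXPA4 ran from -0.84 to 0.74. In flower libraries alone GH9B8 was the only 1 of the 7 XTH and endoglucanase calls to remain. Over all probe sets the count of older-flower calls, 1052, ran from 160 to 2338 with 1 library left out and from 247 to 2446 under the other settings, that of stages 13-14, 3300, from 1971 to 3521 over both, and that of stem, 2394, from 1126 to 3863. No paired analysis was possible because the labels give no replicate numbers to pair on, while the match of genotypes by tissue is already a term of the fits.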

Other observations

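EXPA24, an alpha-expansin gene picked here after its values were seen, was brightest at stages 11-12 in each genotype. Its signal at stages 1-10, 11-12 and 13-14 was 113.6, 574 and 18.4 in arf6 arf8, 6.6, 879 and 88.6 in single-copy plants and 20.9, 1088 and 156.4 in wild-type, and at most 14.3 in the 3 stems. Its older-flower difference of arf6 arf8 from wild-type was -1.23 (SE 0.36, limma adjusted p = 0.0819). EXPB5 was likewise dim in stem, at 114.7 in arf6 arf8, 101.8 in single-copy plants and 95.6 in wild-type, and had 654 in arf6 arf8, 774 in single-copy plants and 1288 in wild-type at stages 13-14. These values were not tested between tissues.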
